A study of Arabidopsis thaliana with 12 samples.

Results

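*HAT2* (locus AT5G47370) was followed through an array experiment on auxin in *Arabidopsis thaliana* seedlings. Its member was the probe set listed with *HAT2* as its single gene, 248801_at, 1 of 13513 probe sets listed with a single gene among 22810 in all. The 12 arrays measured total RNA of seedlings of the Columbia wild type (Col) and of *arf2-6*, a mutant in the Columbia background of *ARF2*, which encodes an auxin response factor. All seedlings had grown for 7 days in liquid Murashige and Skoog medium on a shaker, at 1.5% sucrose and with days of 16 h light and 8 h dark. They were then treated for 2 h at 24 °C, with ethanol as the control or with 5 µM IAA (indole-3-acetic acid), an auxin that plants make. There were 3 arrays for each of 4 groups, called Col_control, Col_IAA, arf2-6_control and arf2-6_IAA here.

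The homeodomain-leucine zipper (HD-Zip) proteins are plant transcription factors in which a DNA-binding homeodomain is followed by a leucine zipper, through which they bind DNA as dimers. *HAT2* belongs to class II of the family, whose members mostly act as repressors of transcription and include genes that respond to auxin and to shade. *HAT2* itself is known as an early auxin-inducible gene of seedlings, and plants that overexpress it are altered in auxin-related growth of shoot and root. Auxin acts on such genes by causing the breakdown of Aux/IAA repressors, which frees the auxin response factors bound at their promoters.

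Signals were on a log2 scale with a lowest deposited value of 5.64, a signal of 50, and between 42.5% and 43.2% of the probe sets of an array lay there. Array medians ran from 6.16 to 6.22. No probe set used here was listed with *ARF2*, so its transcript did not check the genotype labels. The seedling label was checked by marker genes of leaf and root. The 3 of 6 leaf photosynthesis markers with a single-gene probe set lay between 11.5 and 12.7 log2 on every array. Of the 3 of 7 root markers, *PYK10*, a glucosidase gene of the root, lay between 12.2 and 12.7 log2, and the root hair expansins *EXPA7* and *EXPA18* ran from 6.04 to 7.52 and from 5.64 to 7.91. The deviations of Col_control 3 and arf2-6_control 2 from their group means were alike (r = 0.633 over probe sets), so values of *HAT2* are also given without them.

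*HAT2* was measured above the lowest value in untreated seedlings and rose strongly with IAA in both genotypes. In Col_control its signal was 8.08, 8.07 and 7.71 log2 on replicates 1, 2 and 3. In Col_IAA it was 10.85, 11.02 and 10.98 log2. The groups were far apart, with 2.77 log2 between the highest control array and the lowest IAA array. In arf2-6_control the signal was 8.04, 7.87 and 7.50 log2, and in arf2-6_IAA it was 10.66, 10.52 and 10.67 log2. Here the gap was 2.48 log2, so that in both genotypes all 3 IAA arrays lay above all 3 control arrays. On the linear scale the geometric means were 248 in Col_control, 1975 in Col_IAA, 223 in arf2-6_control and 1566 in arf2-6_IAA.

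**Figure D1:**
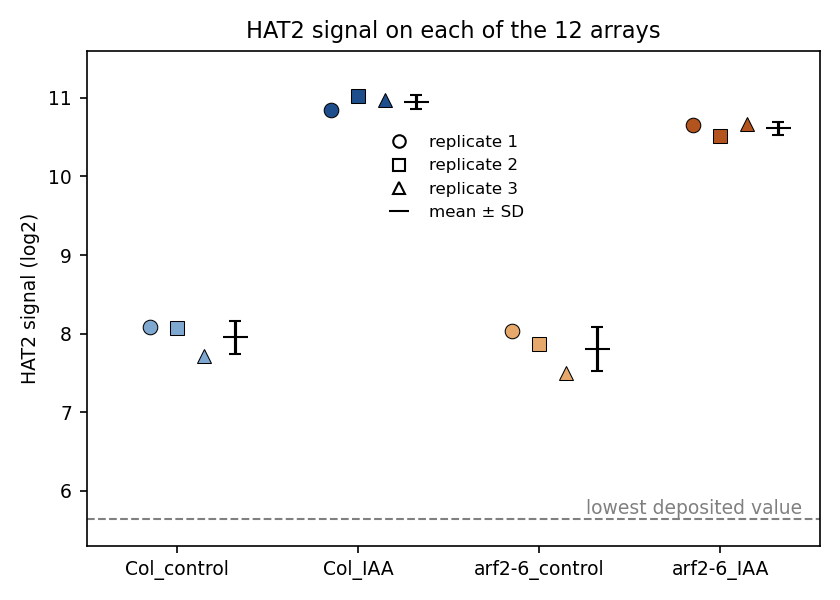
Signal of *HAT2* (log2, vertical axis) on each of the 12 arrays, by group, with replicates 1 to 3 as circle, square and triangle, and the group mean ± SD (n = 3) beside them. The 6 IAA arrays sit between 10.52 and 11.02 and the 6 control arrays between 7.50 and 8.08, all above the lowest deposited value of 5.64 (dashed line).

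With IAA, *HAT2* rose 7.97-fold in Col, from 7.95 ± 0.21 to 10.95 ± 0.09 log2 (SD, n = 3). The difference was 2.99 log2 (SE 0.14, 95% interval 2.687 to 3.302, limma adjusted p = 1.7e-07), and the 9 pairs of a control and an IAA array gave 2.77 to 3.31. In this comparison 8.4% of the 14215 tested probe sets were called at an adjusted p under 0.05, 4.64% as higher, and 10.9% had all IAA arrays above all control arrays. By size of rise *HAT2* stood in place 13 among all tested probe sets and in place 7 among the 7637 listed with a single gene. The labels do not state whether replicates came from separate cultures, so all p-values given here reflect the spread among these arrays, and that spread may be technical. More cells with the transcript and more transcript per cell cannot be told apart in RNA of seedlings.

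In *arf2-6*, *HAT2* rose 7.02-fold, from 7.80 ± 0.28 to 10.61 ± 0.08 log2 (SD, n = 3). The difference was 2.81 log2 (SE 0.14, 95% interval 2.50 to 3.12, limma adjusted p = 4.5e-07). Of all tested probe sets, 8.51% were called here, 3.75% as higher, and 11.3% had no overlap in that direction. Its place by size of rise was 15 among all tested probe sets and 7 among those of a single gene. The rise in *arf2-6* minus that in Col was -0.18 log2 (SE 0.20, 95% interval -0.62 to 0.25, adjusted p = 1.0), so that a rise smaller by 0.62 log2 or larger by 0.25 log2 in the mutant stayed within the interval. This interaction was called for 0.113% of the probe sets. Without Col_control 3 and arf2-6_control 2, the rises were 2.87 log2 in Col and 2.85 log2 in *arf2-6*.

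The 4 group means of *HAT2* fell in the order Col_IAA, arf2-6_IAA, Col_control and arf2-6_control, from 10.95 to 7.80 log2. The wide step lay between the treatments, and the 2 steps between genotypes were not called. In controls, *arf2-6* minus Col was -0.15 log2 (SE 0.14, 95% interval -0.46 to 0.155, adjusted p = 0.70), against calls for 0.858% of the probe sets, and the arrays of the 2 genotypes were interleaved. Without Col_control 3 and arf2-6_control 2 this difference was -0.31 log2 (adjusted p = 0.29), and without arf2-6_control 3 alone it was 0.0006 log2.

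Under IAA the 3 *arf2-6* arrays, at 10.52 to 10.67 log2, all lay below the 3 Col arrays, at 10.85 to 11.02, with a gap of 0.18 log2. Such a separation with *arf2-6* lower was seen for 18.6% of the tested probe sets. The mean difference was -0.33 log2 (SE 0.14, 95% interval -0.64 to -0.03), a 1.26-fold lower level. Its unadjusted p was 0.0353 and its adjusted p 0.17, in a comparison that called 8.79% of the probe sets. A fit on the 6 IAA arrays alone called the same difference (SE 0.07, adjusted p = 0.046), and over all alternatives its adjusted p ran from 0.046 to 0.40. That fit leaves out the control arrays, where *HAT2* varied more, with SDs of 0.21 and 0.28 log2 against 0.09 and 0.08 under IAA.

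Root hair markers lay lower in *arf2-6* with and without IAA, and were called under IAA. In controls *EXPA7* measured -0.66 log2 (unadjusted p = 0.0083, adjusted p = 0.154) and *EXPA18* -0.90 log2 (unadjusted p = 0.0045, adjusted p = 0.12). Of the 3 root markers, only these 2 had an unadjusted p under 0.05 in controls, and 0 were called, beside 0.858% of the tested probe sets. Under IAA, of the 3 root markers measured, 2 were called lower in *arf2-6*, as were 5.86% of the tested probe sets. These were *EXPA18* at -1.54 log2 (SE 0.25, adjusted p = 0.0055) and *EXPA7* at -0.96 log2 (SE 0.21, adjusted p = 0.018), while *PYK10* measured -0.16 log2 (adjusted p = 0.40). The call of *EXPA7* ended without Col_IAA 2 (adjusted p = 0.085), arf2-6_IAA 1 (0.077), arf2-6_IAA 2 (0.0502) or arf2-6_IAA 3 (0.057), and with no filter on low signals (0.059). The summed signal of the 3 root markers on the linear scale, nearly all of it from *PYK10*, was 5597 to 6958 in Col_IAA and 5199 to 5816 in arf2-6_IAA. In Col_control this sum was 5631 to 6329 and in arf2-6_control 5007 to 6178. The sum of the 3 leaf markers was 14533 to 15363 in Col_IAA and 15569 to 16038 in arf2-6_IAA. In Col_control the leaf sum was 13331 to 16091 and in arf2-6_control 14114 to 16010. *EXPA18* was at the lowest deposited value on arf2-6_IAA 1, and no other marker reached it on any array. Of 3 reference genes, *AT4G34270* measured -0.34 log2 (adjusted p = 0.065), *PEX4* -0.12 log2 and *AT2G28390* -0.09 log2, none of them called. The part of tissue make-up in the difference of *HAT2* was not tested.

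Most of the variation of *HAT2* over the 12 arrays lay between the treatments. Treatment accounted for 98.2% of its sum of squares, genotype for 0.69%, their interaction for 0.1%, and the spread within groups for 1.05%. The SD within groups was 0.18 log2, beside a median of 0.17 log2 over all tested probe sets.

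*HAT2* was then set against the other strong IAA responders, taken as the probe sets of a single gene that were called higher with IAA in Col and rose there by at least 2 log2, that is 4-fold. Among all tested probe sets 54 (0.38%) met this, of which 31 were not listed with a single gene and 23, *HAT2* included, were. In Col the rises of the 22 others ran from 2.01 to 5.78 log2 with a median of 2.56, values that chose them and that are given as a description. In *arf2-6* all 22 were called higher, as were 3.75% of the tested probe sets. Their rises there ran from 1.60 to 5.90 log2 with a median of 2.41, beside a median of -0.02 over all tested probe sets. Of the 22, 5 lay at the lowest deposited value on all 6 control arrays. Those 5 passed the filter on low signals only through their IAA arrays and could not fall.

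Larger rises than that of *HAT2* in Col were those of 6 genes. *GH3.3* and *WES1*, which encode GH3 enzymes that conjugate auxin to amino acids, rose by 5.78 log2 (SE 0.32) and 4.30 log2 (SE 0.37). *GH3.3* went from 7.41, 6.98 and 6.29 log2 in Col_control to 12.87, 12.82 and 12.34 in Col_IAA. *IAA29*, an Aux/IAA repressor gene, and *LBD29*, a LOB-domain factor gene of lateral root initiation, lay at the lowest value on all 6 control arrays and rose by at least 3.65 and at least 3.47 log2. *AT4G17350* and *AT1G62770* were close to *HAT2*, at 3.04 log2 (SE 0.15) and 3.01 log2 (SE 0.13).

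The next below *HAT2* in Col were *AT5G40590* at 2.78 log2 (SE 0.19), *AT2G39980* at 2.76 log2 (SE 0.23) and *AT3G26760* at 2.74 log2 (SE 0.13), followed by *GH3.1*, a further GH3 gene, at 2.71 log2 or more. *IAGLU*, which encodes an enzyme that joins glucose to auxin, rose by 2.09 log2 in Col and 1.80 log2 in *arf2-6*. The 95% interval of *HAT2* in Col overlapped those of 15 of the 22 other responders, lay below 3 and above 4, of which 1 had a Col control array at the lowest value. In *arf2-6* it overlapped 12, lay below 3 and above 7, of which 6 had a control array at the lowest value, so that their rises are lower bounds. No difference between genes was tested.

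*HAT2* was 1 of 12 among the 23 responders that lay above the lowest deposited value on all 6 control arrays. Its lowest control array, arf2-6_control 3, was 1.85 log2 above that value, so its folds are measured on both sides. Of the other responders, 11 touched the lowest value on at least 1 control array and 5 lay there on all 6.

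**Figure D2:**
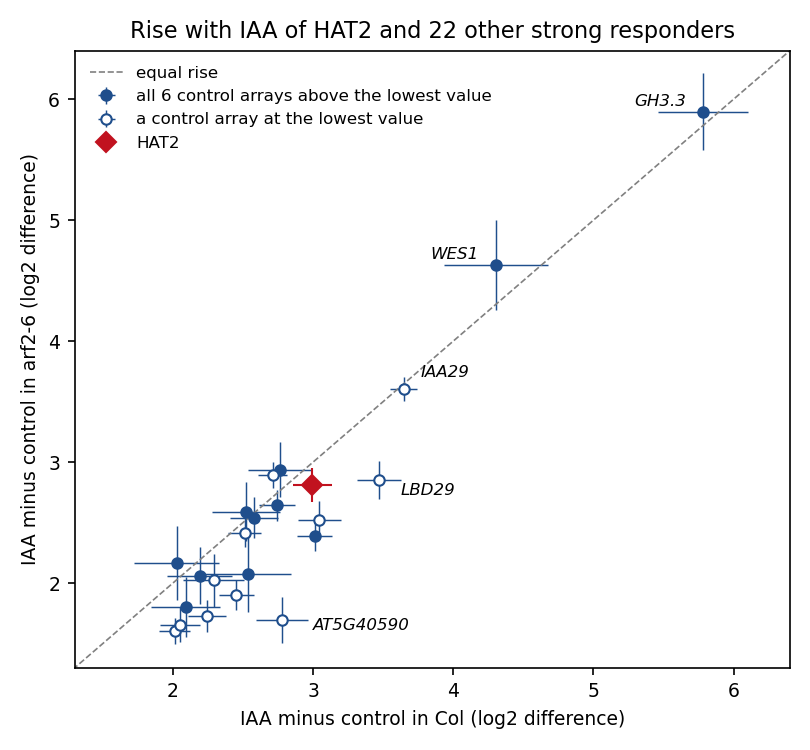
Rise with IAA (log2 difference ± SE) in Col (horizontal axis) against *arf2-6* (vertical axis) for *HAT2* (red diamond) and the 22 other strong responders of a single gene. Open circles have a control array of 1 or both genotypes at the lowest deposited value, so that the rise in that genotype is a lower bound, and *HAT2*, at 2.99 and 2.81, lies near the dashed line of equal rise.

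The interaction of the other responders is given as a description, since the rise in Col that chose them is subtracted in it. Their median was -0.20 log2, beside -0.18 for *HAT2* and -0.02 over all tested probe sets, and it was -0.04 log2 for the responders chosen instead by their rise in *arf2-6*, a choice made after the values were seen. The difference is not measured for the 11 others with a control array at the lowest value. Among those with all 6 control arrays above it, *AT1G62770*, next to *HAT2* in Col, had the lowest value at -0.62 log2 (SE 0.18, adjusted p = 0.69) and *WES1* the highest at 0.33 log2 (SE 0.52, adjusted p = 1.0).

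Under IAA, 18 of the 22 others had a value below 0 in *arf2-6* minus Col, as had 48.6% of the tested probe sets, 10 had all *arf2-6* arrays below all Col arrays, beside 18.6% of the tested probe sets, and 8 were lower at an unadjusted p under 0.05, as were 13.6% of the tested probe sets. Their median was -0.25 log2, against -0.33 for *HAT2*, which held place 10 of 23 from the lowest. Called lower were 5, beside 5.86% of the tested probe sets. *AT5G40590* measured -1.53 log2 (SE 0.19, adjusted p = 0.0014) and *LBD16*, another LOB-domain factor gene, -0.64 log2 (SE 0.11, adjusted p = 0.0075). *AT5G39580* (-0.67 log2, adjusted p = 0.015), *AT4G37295* (-0.58 log2, adjusted p = 0.020) and *LBD29* (-0.62 log2, adjusted p = 0.035) each lost the call without single arrays, *AT5G39580* without Col_IAA 2 (0.064), *AT4G37295* without Col_IAA 1 (0.053), Col_IAA 2 (0.083), arf2-6_IAA 1 (0.074) or arf2-6_IAA 3 (0.084), and *LBD29* without Col_IAA 1 (0.10), Col_IAA 2 (0.11), arf2-6_IAA 1 (0.098) or arf2-6_IAA 3 (0.091). In the fit on the 6 IAA arrays alone *AT5G39580* (0.0625), *AT4G37295* (0.071) and *LBD29* (0.107) also lost it, as did *LBD29* with no filter (0.075) and with the replicate number as a block (0.053). The count of calls ran from 2 to 6 when 1 array was left out. It was lowest, at 2, without Col_IAA 2, and was 3 without Col_IAA 1, arf2-6_IAA 1 or arf2-6_IAA 3.

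The Col_IAA arrays both chose these genes and enter this difference, so the balance toward lower values is not independent of the choice. Chosen instead by a called rise of at least 2 log2 in *arf2-6*, a choice made after the values were seen, the others numbered 18, of which 16 were shared with the first set. Of these 18, 12 had a value below 0, 1 (*LBD29*) was called lower, and the median was -0.09 log2. *HAT2* then held place 5 from the lowest.

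**Figure D3:**
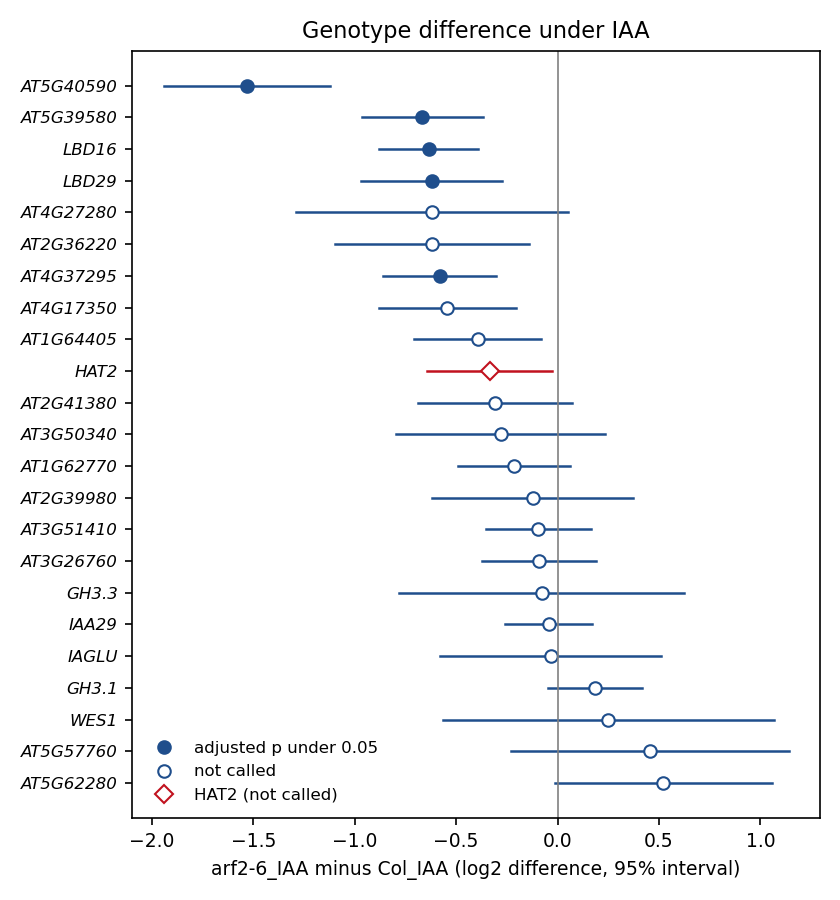
Difference arf2-6_IAA minus Col_IAA (log2, horizontal axis) with its 95% interval for *HAT2* (red) and the 22 other strong responders, ordered from the lowest. Filled points were called at an adjusted p under 0.05, and *HAT2*, at -0.33, has an interval from -0.64 to -0.03 but was not called.

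The genes most like *HAT2* over the 12 arrays were taken by Pearson's r of log2 signal among 7636 tested probe sets of a single gene. The 10 highest r ran from 0.984 to 0.997, beside a median of -0.04, and 122 genes had r over 0.9. The 12 points share 4 groups, so r mostly reflects the step with IAA. *AT2G41380* came first with r = 0.997. It measured 6.58, 6.39 and 5.96 log2 in Col_control, 8.99, 8.89 and 8.79 in Col_IAA, 6.25, 6.14 and 5.73 in arf2-6_control, and 8.67, 8.54 and 8.53 in arf2-6_IAA. As for *HAT2*, replicate 3 was the lowest array in both control groups, and the *arf2-6* arrays lay below the Col arrays under IAA, at a difference of -0.31 log2 (adjusted p = 0.30). Such a separation under IAA was seen for 18.6% of the tested probe sets. Both traits enter the r that chose this gene, so they are given as a description.

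Next in likeness came *AT3G17090* (r = 0.992), *GH3.3* (0.992), *IAA29* (0.990), *AT3G26760* (0.989), *AT3G51410* (0.987), *LBD29* (0.985), *AT5G65300* (0.985), *GH3.1* (0.985) and *AT4G17350* (0.984). Of the 10, 8 were among the strong responders, while *AT3G17090* rose by 0.60 log2 in Col and *AT5G65300* by 1.41 log2. When only the deviations from group means were compared, r with *HAT2* ran from -0.30 (*AT4G17350*) to 0.844 (*AT2G41380*) over these 10. By that measure 1 of them, *AT2G41380*, was again among the 10 most alike.

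**Figure D4:**
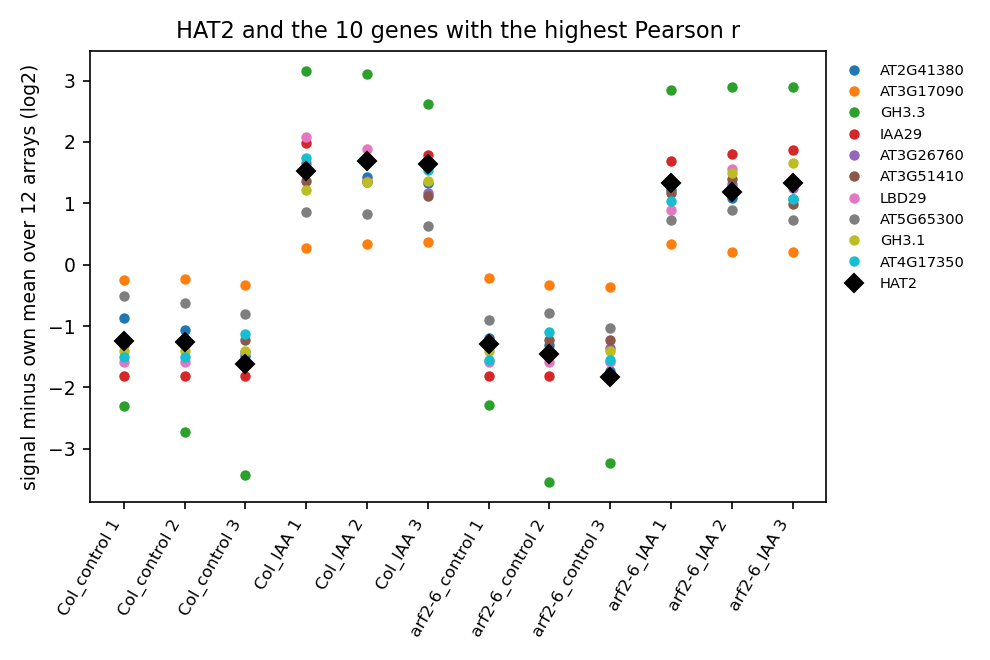
Signal minus the gene's own mean over the 12 arrays (log2, vertical axis) for *HAT2* (black diamonds) and the 10 genes with the highest Pearson's r with it, by array (horizontal axis). All 11 step up from the control to the IAA arrays in both genotypes, by 2.99 log2 in Col for *HAT2*, 5.78 for *GH3.3* and 0.60 for *AT3G17090*.

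Few relatives of *HAT2* could be set beside it. Of 48 HD-Zip genes of the 4 classes, 2 had a single-gene probe set, *HAT2* and *PHV*, a class III gene that sets the upper side of the leaf. *PHV* measured 7.45, 7.32 and 8.06 log2 in Col_control, 7.31, 7.06 and 7.58 in Col_IAA, 7.34, 7.65 and 7.36 in arf2-6_control, and 7.35, 7.23 and 7.29 in arf2-6_IAA. The control and IAA arrays overlapped in both genotypes. The change with IAA was -0.30 log2 in Col (SE 0.19, adjusted p = 0.51) and -0.16 log2 in *arf2-6* (adjusted p = 0.72).

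The other auxin genes came from lists of the pathway. Of the 28 Aux/IAA, 7 GH3, 7 lateral root and 19 transport genes listed, 7, 4, 3 and 2 had a single-gene probe set. Of these, 4, 4, 3 and 1 were tested, the others being removed by the filter on low signals. *IAA29*, *IAA30*, *GH3.1*, *LBD29*, *PUCHI* and *WAG2* had no control array above the lowest deposited value. They passed the filter only through their IAA arrays, so the counts of rises among tested members are partly fixed by the filter. Called higher over all tested probe sets were 4.64% in Col and 3.75% in *arf2-6*. Of the Aux/IAA genes, 2 rose in Col and 3 in *arf2-6*. *IAA29* rose in both, *IAA30* by at least 0.86 log2 in Col (not called in the fit on the 6 Col arrays alone, adjusted p = 0.069) and at least 1.02 in *arf2-6*, and *IAA20* by at least 1.49 log2 in *arf2-6* (adjusted p = 6.1e-05). Of the GH3 genes, 3 rose in each genotype, at a median of 3.51 log2 in Col and 3.76 in *arf2-6* over the 4. Of 3 lateral root regulators, 3 rose in Col, *LBD29*, *LBD16* (2.01 log2) and *PUCHI* (at least 1.01 log2), and 2 rose in *arf2-6*. There *PUCHI* was not called, at a fitted 0.14 log2 (adjusted p = 0.34). Its *arf2-6* control arrays and arf2-6_IAA 1 lay at the lowest deposited value, so that size is no measured change. *WAG2*, a kinase gene of auxin transport and the 1 tested member of that list, rose by at least 1.11 log2 in Col and at least 0.75 log2 in *arf2-6*, the latter call being lost without arf2-6_IAA 1 (adjusted p = 0.055) and without Col_control 3 and arf2-6_control 2 (0.063). No list member was called lower with IAA, as were 3.76% of the tested probe sets in Col and 4.76% in *arf2-6*, and 0 of 3 tested leaf markers, 0 of 3 root markers and 0 of 3 reference genes were called by limma, with unadjusted p under 0.05 for 0, 0 and 0 in Col and 0, 1 and 0 in *arf2-6*. *EXPA18* was called lower in *arf2-6* in the fit on the 6 *arf2-6* arrays alone (-0.76 log2, adjusted p = 0.039).

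No rise was called for the tested gene beside *HAT2* on its chromosome. Of the 2 neighbours on each side, 2 had a single-gene probe set, both on the same side, so the other side was not measured. *AT5G47350* lay at the lowest deposited value on all 12 arrays and was not tested. *AT5G47360* measured -0.12 log2 with IAA in Col (adjusted p = 0.70) and -0.41 log2 in *arf2-6* (SE 0.12, adjusted p = 0.067), which was called without arf2-6_control 3 (-0.56 log2, adjusted p = 0.0063).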

How the data were processed

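The 12 arrays were deposited as 1 table of log2 signals per probe set, and the lowest deposited value was 5.64 on every array. The software and normalization behind these deposited log2 values are not given in the sources used here, so no background correction or scaling was redone. The labels gave each array's group and replicate number. Probe sets were named by the platform's probe-to-gene table, and 13436 of 13513 single-gene names matched the RefSeq gene table.

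A model with 4 group means was fitted in limma 3.58.1 (R 4.3.3) to all 12 arrays, leaving 8 residual degrees of freedom, with a trend in the variance prior. Control probe sets were dropped, and a filter kept the probe sets with a mean signal above the 30% quantile. That quantile equalled the lowest deposited value, so the filter dropped the probe sets at that value on all 12 arrays. Of 22746 probe sets 14215 were tested, and p-values were adjusted over these by Benjamini-Hochberg, with calls at an adjusted p under 0.05. Intervals are 95% intervals from this fit. The code was tested on simulated data. Summaries were made in Python 3.11.15 with pandas 2.3.3. A difference from a group at the lowest value is a lower bound. The number of arrays limits the precision.

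The genes named were *HAT2*, the strong responders, the 10 genes most like *HAT2* by Pearson's r, the tested list members and the neighbours. *HAT2*, the lists and the tests were chosen with earlier results of these data known. Alternatives were arrays shifted to a common median, quantile normalization, other filters, no variance trend, the compared arrays alone, a replicate block, and arrays left out.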

Additional observations from a re-analysis of the deposited data

Results flagged for a closer look

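The interaction in limma was called for 1 of 4 tested Aux/IAA genes, *IAA20*, and for 1 of 3 tested lateral root regulators, *PUCHI*. It was called for 0 of 4 tested GH3 genes, for 0 of 1 tested transport genes and for 0.113% of all tested probe sets. *HAT2* was not called. For *IAA20*, an Aux/IAA gene, the effect in *arf2-6* minus that in Col was 1.48 log2 (SE 0.20, adjusted p = 0.028), and its 3 IAA arrays measured 7.45, 6.78 and 7.41 log2 in *arf2-6* and 5.64, 5.64 and 5.68 in Col. For *PUCHI*, a lateral root regulator, it was -0.87 log2 (SE 0.11, adjusted p = 0.024), with 5.64, 5.85 and 5.87 log2 in arf2-6_IAA and 6.66, 6.79 and 6.53 in Col_IAA. The Col control arrays of both genes, and the *arf2-6* control arrays of *PUCHI*, lay at the lowest deposited value, so these sizes are fitted values and no measured differences between folds. Each gene lay at or near that value in all groups but 1, and its mean signal above that value came mostly from that group. The filter on low signals asked only for a signal above that value on some array. Neither gene passed the stricter filter, with which limma called 0 probe sets for the interaction. The same difference was -0.18 log2 for *HAT2*.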

How the results depend on the processing

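The rise of *HAT2* with IAA was called under every alternative run for it, at 2.87 to 3.06 log2 in Col and 2.66 to 2.93 in *arf2-6* when 1 array was left out. Its control difference ran from -0.27 to 0.0006 log2, turning sign without arf2-6_control 3, its difference under IAA from -0.38 to -0.29 and its interaction from -0.34 to -0.06. The difference under IAA was called in 1 alternative, the fit on the compared arrays alone (-0.33 log2, adjusted p = 0.046). Counts of calls moved more. Over single arrays left out, they ran from 854 to 1276 for IAA in Col, 756 to 1343 for IAA in *arf2-6*, 23 to 477 for genotype in controls, 325 to 1536 for genotype under IAA and 2 to 46 for the interaction. With the compared arrays alone, IAA in Col gave 622 and genotype in controls 2, and the rise of *AT4G27280* in Col was not called (adjusted p = 0.063). With no filter, genotype gave 30 in controls and 648 under IAA. Without Col_control 3 and arf2-6_control 2, genotype gave 559 in controls and 1998 under IAA and the interaction gave 6. The interaction gave 0 calls in limma with the stricter filter and 8 with no variance trend. Among the 10 genes most like *HAT2*, 1 was shared with the 10 by Spearman's rho and 1 with the 10 by deviations. With the 10 by Euclidean distance between profiles centred on their own mean, 7 were shared. *EXPA7* with IAA in Col measured -0.0114 log2 without Col_control 3, also when arf2-6_control 2 was left out too, and up to 0.3481 over single arrays left out, and *EXPA18* measured 0.0177, 0.0057 and 0.0522 log2 without Col_control 1, Col_control 2 and Col_IAA 1. Of 1528 values of single genes over 20 alternatives, 1498 kept direction and call. The cause of these changes was not tested. The replicate numbers were not taken to pair the arrays, since 7 of 18 same-numbered pairs, not all, had a correlation of deviations over 0.1 (-0.497 to 0.488), although 7 of 12 arrays correlated best with their own number. With the replicate block, genotype in controls gave 235 calls and the interaction 6, and no call of *HAT2* changed. Signals at the lowest value limit the folds of the responders with dim controls.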
